A study of Saccharomyces cerevisiae with 46 samples.

Results

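Mixed and clean karyotypes were compared in the 11 yeast lines in which the BUB3 gene was under-covered by sequencing reads, A2, A3, B3, C2, C4, D2, D4, E3, E4, F4 and G4. Each line gave 1 sample called non-evolved and 1 called evolved, so that 22 of the 46 samples of the series entered. The 2 sets were chosen by measured values. For each chromosome the median was taken over the log2 copy ratios of its 1 kb bins, and the sample's baseline, the median of the 16 nuclear chromosome medians, was subtracted to give its level. A sample was mixed if at least 1 chromosome had a level from 0.15 to 0.75, here called intermediate, and clean if none had. By this rule 12 samples were mixed and 10 were clean. A level above 0.75 is called a full gain below, and both sets could hold such gains. Levels are therefore given as a description, without a test, and tests are kept for the state of the samples and for measures outside the chromosome levels. The CUP1 gene array, which lies on chromosome VIII, was tested beside them and is not independent of the rule.

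All samples were genomic DNA from overnight cultures of Saccharomyces cerevisiae of the W303 background, and the study concerned chromosome-specific aneuploidy in cells deficient in Bub3. The labels gave the line code and the state, and neither the genotype, the ploidy, the conditions of evolution nor a common origin of lines with the same letter. For 3 of the 11 lines, C2, E3 and G4, a further sample called evolved_Bub3 existed, 9 other lines had the same states as the 11, and a wildtype, LY1, had 1 sample in each of the 3 states. The 22 samples held 2400085 to 3656612 reads, recovered from the ratios, and their median bin 169 to 265 reads. There was 1 library per line and state, so that the errors of levels and shares below are taken over the bins of 1 library. They cover no spread between cultures. The p-values of the comparisons of states measure the spread between these lines. Those of mixed against clean samples measure the spread between samples and, unless the line is named as block, take the 2 samples of a line as independent.

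Bub3 is a subunit of the spindle assembly checkpoint. With Bub1 and the Mad proteins it holds back the separation of sister chromatids until every kinetochore is attached to the spindle, and it helps to bring Bub1 and shugoshin to kinetochores. Without it, chromosomes are lost or gained more often at division, and a culture can become a mixture of cells with different karyotypes. Read depth of a bulk culture reports the mean copy number over all of its cells: a chromosome that is present in an extra copy in some cells only gives a level between those of the euploid and the fully gained state.

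The lines were grouped for their low coverage of the BUB3 gene (YOR026W, chromosome XV, positions 379781 to 380806 of the R64 assembly), so that its values describe the choice and do not test it. Its 2 bins stood at -1.46 to -0.97 (log2, relative to the median of chromosome XV) in the 22 samples. In the 18 samples of the other 9 lines the same bins stood at -0.29 to 0.11 and in the 3 evolved_Bub3 samples at 0.76 to 1.42. The 3 wildtype samples, 1 of each state, stood at -0.03, 0.01 and 1.19. The gene fills its bins only in part, so that the remaining level was not taken as a copy number.

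Intermediate levels were found on 5 of the 16 nuclear chromosomes, I, II, III, VIII and X. There were 18 of them among 352 levels, 8 in non-evolved and 10 in evolved samples. The other 11 chromosomes stood between -0.06 and 0.05 in all 22 samples, 242 levels in all. Full gains were found on the same 5 chromosomes, with 35 levels between 0.78 and 1.29. The share of cells with an extra copy was estimated as 2 to the power of the level, minus 1, on a baseline of 1 copy, which takes every cell to carry either no extra copy or 1. Other mixtures with the same mean cannot be told apart from it. On a baseline of 2 copies the shares would double: all 35 full gains and 5 of the 18 intermediate levels would then exceed 100%, since a complete gain of 1 copy would stand at 0.58.

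**Figure D1:**
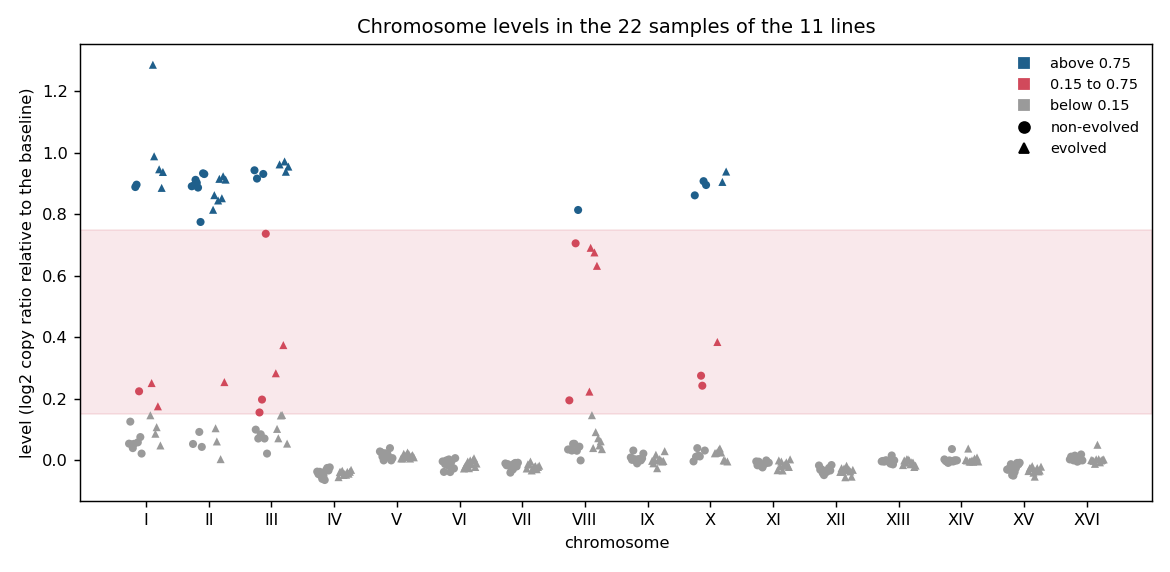
Level of each of the 16 nuclear chromosomes (x axis) in the 22 samples, as log2 copy ratio relative to the sample baseline (y axis), with circles for non-evolved and triangles for evolved samples and the intermediate range from 0.15 to 0.75 shaded. Levels inside the range lie on chromosomes I, II, III, VIII and X only. They fall at 0.16 to 0.39 and at 0.63 to 0.74, with outer ends set by the bounds of the shaded range. The other 11 chromosomes lie between -0.06 and 0.05.

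The 18 intermediate levels fell into 2 ranges with none between them, and the outer ends of both ranges were set by the bounds of the rule. Other levels followed closely outside, at 0.148 for chromosome III of D2 evolved and 0.78 for chromosome II of E3 non-evolved. A lower range of 13 levels in 10 samples ran from 0.16 to 0.39, which corresponds to 11.4% to 30.6% of cells with an extra copy and a median of 18.3%. An upper range of 5 levels in 5 samples ran from 0.63 to 0.74, or 55.04% to 66.7% of cells, with a median of 61.5%. The standard error over bins was at most 0.02 for any of the 18 levels, which is small against the distance between the ranges. This error covers no spread between cultures, and whether other cultures would fall between the ranges was not tested. Chromosome VIII gave 4 of the 5 levels of the upper range, among them both samples of D4, and chromosome III the other.

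The bounds of the rule passed close to some values. Just under 0.15 stood chromosome III of C4 evolved at 0.146, chromosome I of A2 evolved at 0.147, chromosome VIII of B3 evolved at 0.147 and chromosome III of D2 evolved at 0.148. Just above it stood chromosome III of C4 non-evolved at 0.156, with an interval over bins from 0.13 to 0.18, and chromosome I of D4 evolved at 0.176. Of these samples, D2 evolved was clean and C4 non-evolved was mixed by that value alone. At the upper bound, chromosome III of F4 non-evolved stood at 0.74 with an interval that reached 0.76, and chromosome II of E3 non-evolved stood outside at 0.78.

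The chromosomes differed in how often they were intermediate and how often they were fully gained. Chromosome VIII (562643 bp, 293 protein-coding genes) was intermediate in 6 samples and fully gained in 1, E4 non-evolved, at 0.81. Chromosome II (813184 bp, 416 genes) showed the opposite order, with 1 intermediate level and 15 full gains. Chromosome III (316620 bp, 168 genes) was intermediate in 5 samples and full in 7, chromosome I (230218 bp, 94 genes) in 3 and 7, and chromosome X (745751 bp, 365 genes) in 3 and 5. Every mixed sample also held at least 1 full gain. Among the 12 mixed samples the full gains were 6 of chromosome II, 4 of X, 3 of I, 1 of III and 1 of VIII. Among the 10 clean samples they were 9 of chromosome II, 6 of III, 4 of I and 1 of X, and chromosome VIII did not reach 0.15 in any clean sample.

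Chromosome VIII, which carries the CUP1 array of copper-binding metallothionein genes, was intermediate in 4 lines. In A3 it stood at 0.20 non-evolved, or 14.5% of cells (95% interval over bins 13.3% to 15.7%), and at 0.69 evolved, or 61.5% (60.2% to 62.8%). In D4 it stood at 0.71 and 0.63, or 63.1% (61.5% to 64.7%) and 55.04% (53.4% to 56.7%). Both lines thus carried it at an intermediate level in either state, higher in the evolved sample of A3 and lower in that of D4. In C4 it stood at 0.05 non-evolved and 0.68 evolved, or 59.8% of cells (58.4% to 61.2%) in the latter. In A2 it stood at 0.04 non-evolved and 0.22 evolved, or 16.8% (15.5% to 18.02%). In the remaining 7 lines its level was at most 0.15, with the exception of the full gain of E4 non-evolved, for which the evolved sample of the line stood at 0.05.

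Chromosome III, which carries the mating-type locus, was intermediate in C4, D4 and F4 non-evolved and in A2 and D4 evolved. The highest level was that of F4 non-evolved, 0.74 or 66.7% of cells (64.6% to 68.8%), and the evolved sample of the line stood at 0.05. D4 had the chromosome at 0.20 non-evolved, or 14.7% (12.999% to 16.4%), and at 0.37 evolved, or 29.7% (27.7% to 31.7%). These intervals over bins did not overlap, but they come from 1 library per state and cover no spread between cultures. A2 had a full gain at 0.94 when non-evolved and stood at 0.28 when evolved, or 21.7% of cells (20.2% to 23.2%). C4 hardly differed between its states, with 0.156 non-evolved, or 11.4% (9.70% to 13.2%), and 0.146 evolved, which fall on either side of the bound. Set against the other 9 lines, III of C4 non-evolved was not intermediate and the sample became clean.

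Chromosome X carries MAD2 and MAD3, subunits of the checkpoint, and was intermediate in 3 samples. B3 evolved stood at 0.39, or 30.6% of cells (29.6% to 31.6%), against 0.01 in the non-evolved sample of the line. E3 non-evolved stood at 0.24, or 18.3% (17.3% to 19.4%), against 0.00 in the evolved sample. D4 non-evolved stood at 0.28, or 21.04% (19.8% to 22.2%), and D4 evolved had a full gain at 0.91. All 3 levels of this chromosome lay in the lower range.

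Chromosomes I and II completed the set. Chromosome I, the smallest of the genome, was intermediate in E4 non-evolved at 0.22, or 16.9% of cells (14.3% to 19.4%), in A3 evolved at 0.25, or 19.05% (16.4% to 21.8%), and in D4 evolved at 0.18, or 12.97% (10.7% to 15.3%). The other state of these lines stood at 0.05 in E4 and 0.13 in A3, while D4 non-evolved had a full gain at 0.90. With the mean copy ratio of the bins in place of the median, chromosome I was no longer intermediate in E4 non-evolved and D4 evolved, and E4 non-evolved, which had no other intermediate chromosome, became clean. Set against the other 9 lines it was no longer intermediate in D4 evolved. Chromosome II was intermediate in F4 evolved alone, at 0.25 or 19.3% (18.3% to 20.3%), where the non-evolved sample had a full gain at 0.93.

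Across the 18 intermediate levels, the same chromosome in the other state of the line was intermediate in 6, below 0.15 in 8 and fully gained in 4. Seen from the non-evolved samples, 8 intermediate chromosomes became 3 intermediate, 4 below 0.15 and 1 full. The 17 full gains of the non-evolved samples were in the evolved samples full in 6, intermediate in 3 and below 0.15 in 8. An intermediate chromosome of a non-evolved sample therefore had a full gain in the evolved sample in 1 case, chromosome X of D4. Whether the evolved culture descended from the sequenced non-evolved one is not given in the labels.

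Set against the other 9 lines, the levels were even along the chromosomes. For this comparison each bin was set against its median over the other 9 lines, and windows of about 20 bins were formed. Of the 402 windows on intermediate chromosomes, 400 lay within 0.15 of the level of their chromosome. So did 1370 of 1372 windows of these 5 chromosomes at levels below 0.15 and 953 of 954 windows of full gains. Such evenness was therefore not particular to intermediate levels. Of the 402 windows, 370 lay between 0.15 and 0.75 themselves. On the same 5 chromosomes at levels below 0.15, 65 of 1372 windows reached that range. The windows outside it belonged mostly to levels near a bound, such as chromosome III of C4 non-evolved with 9 of 15 windows inside and chromosome I of D4 evolved with 5 of 9. The medians of the left, middle and right parts of an intermediate chromosome differed by 0.04 at the median and by at most 0.11, in C4 non-evolved, against at most 0.07 for full gains. For chromosome VIII of A3 evolved they were 0.69, 0.71 and 0.68, and for chromosome X of B3 evolved 0.39, 0.39 and 0.36. On the scale of the rule, without this correction, chromosome I was uneven: its left, middle and right parts stood at 0.33, 0.25 and 0.07 in A3 evolved, at 0.27, 0.25 and 0.07 in E4 non-evolved and at 0.21, 0.19 and 0.04 in D4 evolved. Uncorrected parts of chromosome I also differed by 0.21 to 0.34 in the 12 samples in which it was below 0.15 and by 0.15 to 0.27 in the 7 with a full gain. On the other intermediate chromosomes the uncorrected parts differed by at most 0.05.

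**Figure D2:**
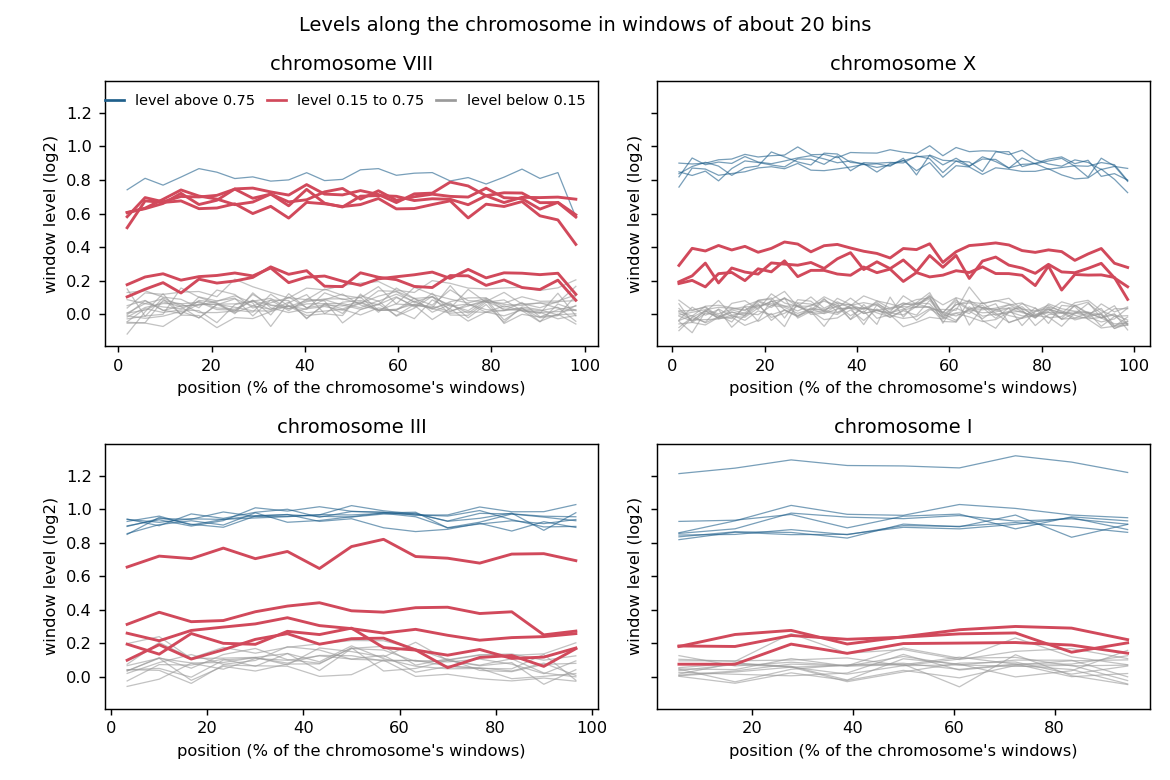
Window levels (y axis, log2, relative to the other 9 lines) along chromosomes VIII, X, III and I (x axis, position as percent of the windows of the chromosome), 1 line per sample, coloured by the level of the chromosome. The intermediate chromosomes run mostly level between the full gains above and the chromosomes below 0.15, with some windows that overlap those of the other groups. The intermediate lines of chromosome VIII form 2 groups. On the scale of the rule, without the correction of this figure, their chromosome levels are 0.63 to 0.71 for 4 and 0.20 to 0.22 for 2.

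The full gains stood below a complete gain of 1 copy in most samples. Their median was 0.90 in mixed samples (n = 15 levels), or 86.2% of cells, with a range of 71.2% to 144%, and 0.92 in clean samples (n = 20), or 89.2%, with a range of 80.6% to 98.5%. The lowest, chromosome II of E3 non-evolved at 0.78 and chromosome VIII of E4 non-evolved at 0.81, were in mixed samples. The 6 full gains of the other 9 lines, of chromosomes XI and XII, had a median of 0.99, or 98.8%, and none lay below 97.6%. The 7 full gains of the evolved_Bub3 samples had a median of 1.02. Chromosome I of B3 evolved, at 1.29, exceeded 1 extra copy per cell, with an estimate of 144% (141% to 147%), so that for this chromosome the value is not a share of cells. Levels below 0.15 on the 5 chromosomes had a median of 0.06 in mixed samples (n = 27), 0.04 in clean samples (n = 30) and 0.01 in the other 9 lines (n = 90). What these small levels reflect was not tested.

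Of the 11 lines, 4 were mixed in both states, A3, C4, D4 and F4. D4 was the most mixed, with 3 intermediate chromosomes in each state. Non-evolved, D4 had chromosome I fully gained beside intermediate III, VIII and X, and evolved it had X fully gained beside intermediate I, III and VIII. Summed over its chromosomes this came to 1.85 extra chromosome copies per cell in both samples. A3 had a full gain of X and intermediate VIII when non-evolved, and a full gain of II at 0.86 with intermediate I and VIII when evolved. C4 had a full gain of II in both samples, at 0.90 and 0.85, with III intermediate in one and VIII in the other. F4 had a full gain of II with intermediate III when non-evolved, and full gains of I and X with intermediate II when evolved. In these 4 lines 8 mixed samples showed 7 combinations of full and intermediate chromosomes, with that of II and III shared by C4 and F4 non-evolved.

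The other lines were mixed in 1 state or in none. E3 and E4 were mixed only when non-evolved and A2 and B3 only when evolved. E3 evolved had full gains of I, II and III at 0.95, 0.85 and 0.97 and E4 evolved of II and III at 0.92 and 0.94, while A2 non-evolved had II and III at 0.89 and 0.94 and B3 non-evolved at 0.89 and 0.92. C2, D2 and G4 were clean in both states. C2 changed from a full gain of II at 0.91 to gains of I and III at 0.99 and 0.96, D2 from gains of I and II to II alone at 0.92, and G4 from II and X to I, II and III. No line of the 11, mixed or clean, had the same combination of full and intermediate chromosomes in both states.

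The 12 mixed samples showed 11 combinations of full and intermediate chromosomes and the 10 clean samples 6. Clean samples have no intermediate chromosome by the rule and so fewer possible combinations, and the 2 counts do not compare how varied the sets were. The gain of II with III was the most frequent clean karyotype, in 3 samples. Of the mixed samples, 8 had 1 intermediate chromosome, 2 had 2 and 2 had 3. A further count concerns full gains. They numbered 1 in 9 mixed samples and 2 in 3, whereas 2 clean samples had 1, 6 had 2 and 2 had 3. As an intermediate chromosome cannot also be a full gain in the same sample, these counts are tied by the rule.

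The sum of extra copies per cell takes the intermediate and full levels together. It ran from 0.96 to 1.959 in mixed samples, with a median of 1.68, and from 0.88 to 2.74 in clean samples, with a median of 1.77. Intermediate chromosomes gave 0.11 to 0.99 copies of it in the mixed samples. The highest sums, 2.74 in G4 evolved and 2.69 in E3 evolved, were those of the clean samples with 3 full gains. Expressed as DNA, mixed samples held an extra 559 to 1119 kb per cell and clean samples 527 to 1379 kb, or 4.63% to 9.27% and 4.37% to 11.4% of the nuclear genome. The ranges of the 2 sets overlapped widely in all 3 quantities.

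**Figure D3:**
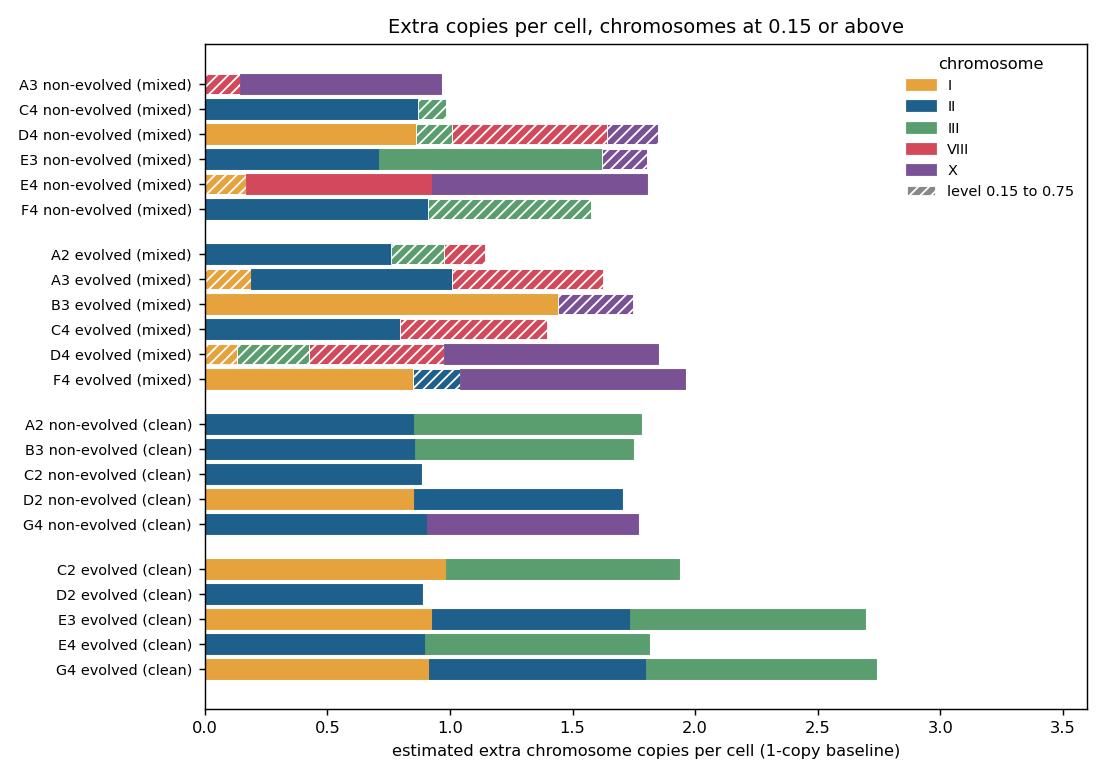
Estimated extra chromosome copies per cell (x axis, baseline of 1 copy) in each of the 22 samples, stacked by chromosome and grouped by set and state, with hatching for intermediate levels. Mixed samples sum to 0.96 to 1.959 copies, clean samples to 0.88 to 2.74, and red segments, for chromosome VIII, occur in mixed samples only.

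The state of the lines comes from the labels and was compared within lines. Mixed samples numbered 6 of 11 in either state, with 2 lines mixed only when non-evolved and 2 only when evolved, and the exact McNemar test gave p = 1. With 4 discordant lines its smallest possible two-sided p is 0.125. The number of intermediate chromosomes was 0.73 ± 0.90 (SD, n = 11) per non-evolved sample and 0.91 ± 1.04 (SD, n = 11) per evolved sample. The paired difference of 0.18 ± 0.87 (SD) did not exceed the spread between lines (exact two-sided sign-flip permutation test, p = 0.75). From non-evolved to evolved the number increased in 3 lines, decreased in 2 and was equal in 6. This difference depended on the bounds. It was 0.55 with bounds of 0.10 and 0.80 (exact permutation p = 0.375), of 0.14 and 0.75 (p = 0.266) and of 0.20 and 0.70 (p = 0.188). The 4 levels just under 0.15 were all in evolved samples and became intermediate with lower bounds of 0.10 and 0.14. Bounds of 0.20 and 0.70 left out III of C4, D4 and F4 and VIII of A3 and D4, all non-evolved. Among the evolved samples they left out I of D4. The difference was 0 without A2, 0.1 without A3 or B3 and 0.3 without E3 or E4.

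The sum of extra copies was 1.53 ± 0.39 per cell (SD, n = 11) in the non-evolved and 1.80 ± 0.56 (SD, n = 11) in the evolved samples. The evolved value exceeded the non-evolved one in 8 lines, among them E4 with 1.80 and 1.81 and D4 with 1.85 in either state to the precision given. The paired difference was 0.27 ± 0.62 (SD, exact two-sided sign-flip permutation test, p = 0.183), and 0.000977 was the smallest p that this test allows. The largest increases were those of C2, from 0.88 to 1.93, and G4, from 1.77 to 2.74. D2 fell from 1.70 to 0.89 and A2 from 1.78 to 1.14. Neither the number of intermediate chromosomes nor the sum of copies thus differed between the states beyond the spread of the lines. The median intermediate level was 0.23 in non-evolved and 0.33 in evolved samples, or 17.6% and 25.7% of cells, with 2 of 8 and 3 of 10 levels in the upper range.

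**Figure D4:**
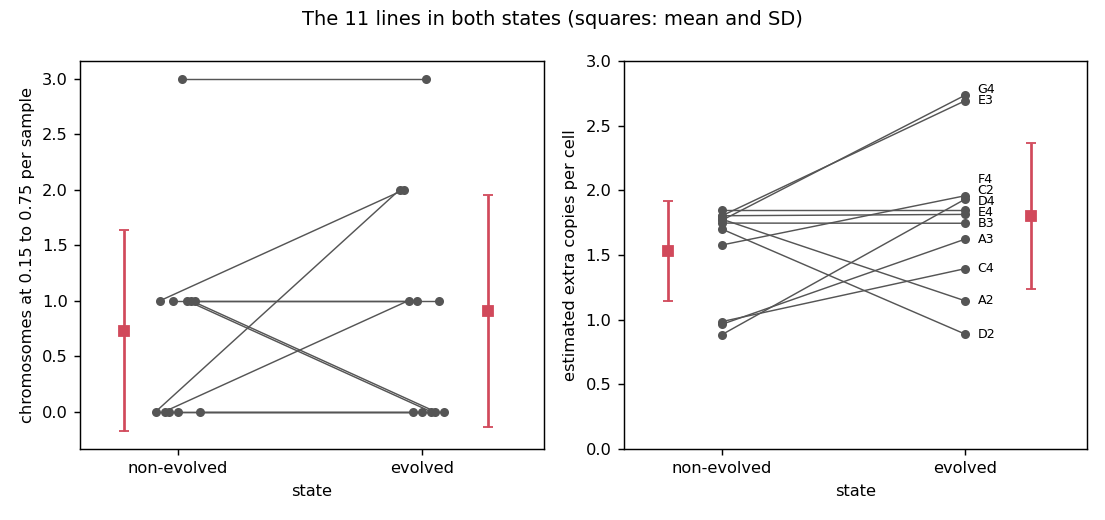
Number of intermediate chromosomes per sample (left, y axis) and estimated extra copies per cell (right, y axis) for the 11 lines in the non-evolved and evolved state (x axis), with lines joining the samples of a line and red squares with bars for mean and SD. The number went from 0.73 ± 0.90 to 0.91 ± 1.04 and the sum of copies from 1.53 ± 0.39 to 1.80 ± 0.56, and the values of the lines cross in both panels.

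A set of 6 measures, of which 5 lie outside the levels of the intermediate chromosomes and the CUP1 array lies on one of them, was compared between the 12 mixed and 10 clean samples, with exact two-sided permutation of the sets within state and Benjamini-Hochberg adjustment over the 6. Adjusted over the 5 without CUP1, the lowest p was 0.852. Mitochondrial DNA stood at 4.19 ± 0.19 (log2 relative to the nuclear baseline, SD) in mixed and 4.14 ± 0.17 in clean samples (adjusted p = 0.818). The ribosomal DNA array on chromosome XII, the tandem repeat of the rRNA genes, stood at 2.76 ± 0.15 and 2.72 ± 0.30 (adjusted p = 0.818). The BUB3 bins stood at -1.24 ± 0.13 in mixed and -1.24 ± 0.17 in clean samples (adjusted p = 0.973). All 11 lines were chosen for low coverage of these bins, which narrowed their range, so this test cannot decide whether BUB3 coverage goes with the sets. Read totals were 2.91 ± 0.38 and 2.84 ± 0.32 M reads, and the spread between bins 0.1502 ± 0.009 and 0.1525 ± 0.007 (SD, log2; adjusted p = 0.818 for either). None of these 5 measures differed between the sets beyond the spread between samples, and for none of the 6 did a difference of the sets between the states pass the test (lowest adjusted p = 0.651).

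The sixth measure was the CUP1 array. Its level was 0.86 ± 0.43 (log2, SD) in mixed and 0.64 ± 0.09 in clean samples, with a difference of 0.22 (exact permutation p = 0.139, adjusted p = 0.818). The difference was 0.35 without F4 (adjusted p = 0.0537), 0.13 without D4 (adjusted p = 0.726) and 0.35 with bounds of 0.20 and 0.70 (adjusted p = 0.0518). The spread of the mixed samples came from 5 high and 2 low ones. E4 non-evolved stood at 1.45, D4 non-evolved at 1.38, C4 evolved at 1.26, D4 evolved at 1.20 and A3 evolved at 1.15. These 5 were the samples in which chromosome VIII itself stood at 0.63 or above, so that the measure was not independent of the rule. Chromosome VIII was intermediate in 6 mixed and 0 clean samples, so a higher CUP1 level in mixed samples followed in part from the rule. The p-values of this level therefore cannot decide whether the sets differ in CUP1 apart from its chromosome. F4 stood low in both states, at 0.18 non-evolved and 0.26 evolved, with chromosome VIII at 0.04 and 0.06. Set against chromosome VIII, CUP1 was 0.13 and 0.20 in F4 and 0.45 to 0.74 in the other 20 samples. On this scale, which was added after the values were seen, mixed samples were lower, at 0.50 ± 0.17 against 0.59 ± 0.11, with a difference of -0.09 (exact permutation, adjusted p = 0.818).

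**Figure D5:**
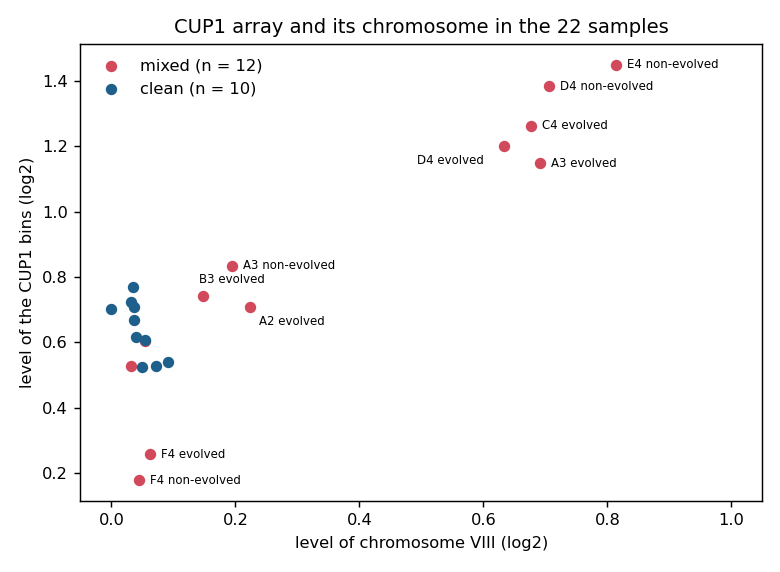
Level of the CUP1 bins (y axis, log2) against the level of chromosome VIII (x axis, log2) in the 22 samples, coloured by set. The 5 samples with chromosome VIII at 0.63 to 0.81 have CUP1 at 1.15 to 1.45, the clean samples lie between 0.53 and 0.77, and both F4 samples lie below at 0.18 and 0.26.

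Genes of the checkpoint and of the chromosomal passenger complex sat on some of these chromosomes. Their values rest on 1 to 4 bins each and are looser than the chromosome levels. Of the 6 checkpoint genes listed, 2 were on the intermediate chromosomes, MAD2 (YJL030W, X, 387657 to 388247) and MAD3 (YJL013C, X, 409493 to 411040), whose products bind and inhibit Cdc20, the activator of the anaphase-promoting complex. In B3 evolved, with chromosome X at 0.39, MAD2 stood at 0.35 and MAD3 at 0.42 (log2 relative to the sample baseline). In D4 non-evolved, with X at 0.28, they stood at 0.24 and 0.32, and in E3 non-evolved, with X at 0.24, at 0.17 and 0.16. Over the 22 samples, MAD2 lay within 0.15 of the level of chromosome X in 20 and exceeded it by at most 0.26, in C2 evolved, and MAD3 lay within 0.15 in 20. MAD1, BUB1 and MPS1, which lie on chromosomes VII and IV, had medians between -0.12 and 0.03 in both sets.

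Of the 5 genes of the passenger complex and shugoshin, 3 were on intermediate chromosomes. SLI15 (YBR156C, II, 551104 to 553200) encodes the scaffold that activates the kinase Ipl1, and its median was 0.51 in mixed and 0.86 in clean samples. It lay within 0.15 of chromosome II in 21 samples, with the exception of E4 non-evolved, where it stood at -0.28 and the chromosome at 0.04. BIR1 (YJR089W, X, 587718 to 590582), the survivin-like subunit, had medians of 0.26 and 0.00 and lay within 0.15 of chromosome X in all 22. NBL1 (YHR199C-A, VIII, 498571 to 498859), the borealin-like subunit, lies in 1 bin, had medians of 0.39 and 0.09 and lay within 0.15 of chromosome VIII in 12 of 22 samples. It stood at 0.40 in A3 non-evolved with VIII at 0.20, and at 0.31 in E4 evolved with VIII at 0.05. In C4 evolved, D4 evolved and A3 evolved, NBL1 stood at 0.70, 0.79 and 0.80. IPL1, the Aurora kinase, and SGO1, the shugoshin, lie on chromosomes XVI and XV and had medians between -0.05 and 0.02. Since the levels of their chromosomes chose the samples, these values are given as a description.

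The samples outside the 11 lines held few intermediate levels by the same bounds. Of the 18 samples of the other 9 lines, 1 was mixed, B2 non-evolved with chromosome VI at 0.19, and none of these lines had chromosome I, II, III, VIII or X above 0.10. The 3 wildtype samples had no intermediate chromosome, with all levels between -0.03 and 0.06. The 3 evolved_Bub3 samples had none either, and belonged to lines whose evolved samples were all clean. In C2 the evolved_Bub3 sample had chromosome II at 0.81, with I at 0.00 and III at 0.04, where the evolved sample had gains of I and III. In E3 and G4, chromosome VIII stood at 0.98 and 1.03 in the evolved_Bub3 sample and at 0.07 and 0.04 in the evolved one, and chromosome II at -0.00 and 0.13 where the evolved samples had 0.85 and 0.91. These are values of 1 sample each and were not tested.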

How the data were processed

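The libraries were prepared by tagmentation of culture DNA and read as pairs of 150 bp, per the labels' protocols. The authors deposited log2 copy ratios for 12165 bins of 1 kb per sample, 86 of them mitochondrial, which per the file headers are in a GATK copy-number format. The submitters' processing notes name GATK, Picard 2.27.1, BWA 0.7.17 and Trimmomatic 0.39. Their settings, including removal of duplicates, correction for GC content and a panel of normal samples, are not given in the sources used here. In every sample at least 99.99% of the covered ratios were whole reads divided by the median bin (tolerance 0.01 reads), which gave the read totals.

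The sum of extra copies was taken over chromosomes at 0.15 or above. The standard error of a level was 1.2533 times the robust SD of the bins (1.4826 times the median absolute deviation) over the square root of their number, and intervals are 95%. They cover counting and bin-to-bin error within 1 library. Mitochondrial, ribosomal DNA (18 bins) and CUP1 (3 bins) levels were the log2 of the mean ratio of their bins minus the baseline. Alternatives were other bounds, the mean in place of the median, trimmed chromosome ends, other baselines, an unpaired test and leaving out each line. Samples were paired by the line code in the titles, and the deviations of bins from their state means, correlated between the states of a line, gave r of -0.02 to 0.01, over 0.1 in 0 of 11 lines. No 2 samples of a state agreed within sampling noise (chi-square per degree of freedom 1.71 to 11.2 over 110 pairs). Computations used Python 3.11.15, numpy 2.4.6, pandas 2.3.3 and SciPy 1.17.1. The samples, bounds, gene lists and tests were chosen with earlier results of these data known. Named are all 22 samples, every chromosome at 0.15 or above in them, the levels next to the bounds, BUB3 and the genes of the 2 lists. Other items were named after their values were seen.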

Additional observations from a re-analysis of the deposited data

Results flagged for a closer look

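C2 non-evolved held 0.882 extra copies per cell, from a full gain of chromosome II alone, and was set apart from the other 4 clean non-evolved samples, the nearest of which held 1.70. Its distance to that sample was 0.914 of the range of the group. Samples outside this group held similar sums, with 0.962 in A3 and 0.984 in C4 non-evolved, both mixed, and 0.886 in D2 evolved. This check was run on 28 groups of samples and measures, of which chance sets apart about 1 in 20. That rate need not hold for this sum, which follows the number of full gains, 1 in C2 non-evolved and 2 in each of the other 4.

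B2 non-evolved, of a line outside the 11, had chromosome VI at a level of 0.185, above the highest level of any chromosome in the wildtype samples, 0.0645. In the same sample chromosome I stood at 0.10, III at 0.09, IX at 0.06 and IV at -0.07. Chromosome VI was between -0.04 and 0.01 in the 22 samples and between 0.00 and 0.19 in the 18 samples of the other 9 lines, with a median of 0.04. It also stood above the wildtype levels in A4 evolved at 0.133, A1 evolved at 0.109 and G4 evolved_Bub3 at 0.143. In B2 non-evolved it was uneven, with left, middle and right parts that differed by 0.20.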

How the results depend on the processing

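Of 189 alternative values, 16 had the opposite sign to the reported value, and none of those with a test passed the 0.05 threshold. The 19 values of the number of mixed samples had no test and could not turn sign. The 20 values of the difference in mixed lines were not counted as turned. Tests with the line as block, and the McNemar test with 4 discordant lines, could not pass the threshold, with a smallest p of 0.125. The difference in the number of mixed lines, 0 as reported and so without a direction, was 0 to 3 and, with a line left out, -1 to 1. The difference in intermediate chromosomes was 0.0909 to 0.545, and 0 to 0.3 with a line left out. The number of mixed samples was 9 to 13 of 22 (9 with bounds of 0.20 and 0.70, 3 non-evolved and 6 evolved, and 13 with 0.10 and 0.80), and 10 to 12 with a line left out. The paired difference in extra copies was 0.23 to 0.31, and 0.19 to 0.37 with a line left out, with exact permutation p from 0.0527, without D2, to 0.334. The lowest adjusted p of the mixed against clean comparisons (exact permutation) was 0.0518, for CUP1 with bounds of 0.20 and 0.70, a measure not independent of the rule. The BUB3 difference of -0.00 became 0.0064 with bounds of 0.10 and 0.80 or of 0.14 and 0.75, 0.03998 with 0.20 and 0.70 and 0.0306 with levels set against the other 9 lines, and was -0.0487 to 0.0511 with a line left out. That in read totals became -0.018 (M reads) with bounds of 0.10 and 0.80 or of 0.14 and 0.75, and was -0.00344 to 0.156 with a line left out. CUP1, at 0.219 as reported and with the lowest unadjusted p of the 6 (0.139, exact permutation), turned to -0.0926 relative to chromosome VIII. The bounds of 0.14 and 0.75, CUP1 relative to VIII, the adjustment without CUP1 and a sum over all 5 chromosomes were added after the values were seen. With the line as replicate block, which used the 4 lines mixed in 1 state only (smallest p 0.125), the mitochondrial difference was -0.0197 and that of BUB3 0.0637 (exact permutation, adjusted p = 0.875 for either). As no measure could pass the 0.05 threshold under the block, it cannot decide whether the sets differed. Why these signs turned was not tested. Levels of up to 0.10 occurred on the 5 chromosomes in the other 9 lines, which limits the reading of small shares.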
